A study of Mus musculus with 8 samples.

Results

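The genes examined are 10 mouse genes tied to epithelial-mesenchymal transition, the loss of epithelial character and gain of migratory, fibroblast-like character: Snai1, Snai2, Snai3, Zeb1, Zeb2, Twist1, Twist2, Prrx1, Vim and Fn1. They were taken by symbol, 1 row each, from a count table of 55536 genes, and the rule uses symbols alone. The cells were MIN6, an insulin-producing line from a mouse pancreatic tumour, genotype WT in all groups, transfected for 48 h with a lipid reagent. Control cells received the empty plasmid pcDNA 3 and the others pGloMyc-Klf4, which expresses Klf4, a zinc-finger transcription factor known from stem cells and epithelia. Each group had 4 libraries of polyadenylated RNA called biological replicates, 2 in each of 2 batches. By their names the plasmids differ in backbone as well as in Klf4, and the share of cells that took them up is not given in the labels, so these cannot be told apart from the effect of Klf4. The extraction text speaks of islets, whereas each sample is labelled as the cell line.

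SNAI and ZEB proteins are zinc-finger repressors that bind E-box sites, of the form CACCTG, in epithelial genes such as the one for E-cadherin, and they recruit corepressors including CtBP and histone demethylase LSD1. TWIST proteins are bHLH factors that act as dimers with E proteins and are held back by ID proteins, and PRRX1 is a homeobox factor of embryonic mesenchyme. Vimentin, encoded by Vim, is the intermediate filament of mesenchymal cells, and Fn1 encodes fibronectin, a matrix protein bound by integrins. Adult β cells are epithelial cells that share many neuronal genes, and loss of β-cell character in culture is known to come with mesenchymal genes.

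Library totals lay between 45417853 and 52731176 counts. All 10 β-cell markers listed (among them Ins1, Ins2, Pdx1 and Mafa) passed the filter on low counts, 5 of them lower and none higher with the Klf4 plasmid, with a summed level of 25331 to 32108 CPM (library-scaled counts per 1e6) in control and 23657 to 32362 CPM in Klf4-plasmid libraries. Klf4 itself had 1743 to 2060 counts with empty vector against 205171 to 308667 in Klf4-plasmid libraries, plasmid and endogenous transcripts together. Over all genes, 36.6% of the 18266 tested changed at an adjusted p under 0.05, 21.1% higher and 15.5% lower in Klf4-plasmid cells, so a call by itself is common in these data.

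Vim, Snai1, Zeb2 and Twist2 rose in Klf4-plasmid cells, no tested gene of the 10 fell, and Snai2, Snai3 and Zeb1 did not pass the test. Vim rose 22.6-fold, Twist2 4.48-fold, Snai1 2.69-fold and Zeb2 1.38-fold, as ratios of mean CPM over 4 libraries against 4. Twist1, Prrx1 and Fn1 had too few counts to be tested. Of the 7 tested genes 4 were therefore higher, against 21.1% of all tested genes. Vim and Twist2 had under 10 counts in every control library and passed the filter through the Klf4-plasmid libraries alone. Such low control counts nearly fix the call of a tested gene: of all 541 such tested genes, 537 were called higher. Among the other 5 tested genes, 2 were higher. Over all genes, 16972 tested genes did not pass through the Klf4-plasmid libraries alone, and 2933 of these were higher. In these bulk cultures, more cells with a transcript and more transcript per cell cannot be told apart.

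The stretches before the RefSeq start sites of the genes that rose are shown because Krüppel-like factors bind CACCC boxes and related GC-rich sites, and SNAI and ZEB proteins bind CACCTG. RefSeq promoters (GRCm38.p6) were found for Snai1, Zeb2, Twist1, Twist2, Vim and Prrx1. In the 250 bases before each start, both strands were searched for the CACCC box, for the wider motif CCNCNCCC and for the E-box CACCTG. The first and second of these can overlap each other, and the second overlaps itself in runs of G. Matches are in capitals, and each sequence is written 5′ to 3′ on the strand of its gene. The Vim window is not upstream sequence in GENCODE: all 250 of its bases lie downstream of the annotated start of the gene, in an exon of a Vim transcript. It is therefore shown as 26-base stretches around its matches. The Snai1, Twist2 and shown Zeb2 windows share 0 bases with exons of coding transcripts.
Snai1, chr2:167537945-167538194, plus strand: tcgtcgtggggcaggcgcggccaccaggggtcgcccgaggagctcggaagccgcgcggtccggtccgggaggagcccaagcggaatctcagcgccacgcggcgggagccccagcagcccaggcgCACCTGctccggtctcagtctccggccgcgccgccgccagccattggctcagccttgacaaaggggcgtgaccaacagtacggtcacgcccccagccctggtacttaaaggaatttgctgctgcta
Twist2, chr1:91801211-91801460, plus strand: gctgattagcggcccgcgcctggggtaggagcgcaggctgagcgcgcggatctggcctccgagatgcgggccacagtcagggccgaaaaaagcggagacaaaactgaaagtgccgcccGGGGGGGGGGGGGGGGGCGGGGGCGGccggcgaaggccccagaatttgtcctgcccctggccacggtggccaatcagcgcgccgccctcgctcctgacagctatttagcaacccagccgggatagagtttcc
Zeb2, first of 4 starts, chr2:45117443-45117692, minus strand: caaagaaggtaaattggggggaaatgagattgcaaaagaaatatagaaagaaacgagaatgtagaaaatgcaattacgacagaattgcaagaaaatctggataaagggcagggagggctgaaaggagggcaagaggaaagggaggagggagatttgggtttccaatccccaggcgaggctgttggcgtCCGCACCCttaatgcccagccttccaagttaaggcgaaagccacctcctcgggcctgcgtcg
Vim, chr2:13574067-13574092, plus strand: agagagttcGGGTGatcaccaggaaa
Vim, chr2:13574169-13574194, plus strand: ggggagctcCCTCCCCCACCCCCctt
Vim, chr2:13574242-13574267, plus strand: gatggcagtGGGAGGGGaccctcttt

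The exonic Vim window held 3 separate stretches with a match to CACCC or CCNCNCCC. The Twist2 window held 1 long G-rich stretch and the shown Zeb2 window 1. Each window of the other 3 Zeb2 starts, which share 5, 31 and 191 bases with exons, held 1 too. The windows that share 5 and 31 bases overlap each other and hold the same stretch. The Snai1 window matched neither motif and held a single CACCTG. Other GC-rich forms were not searched for. Twist1, which was not tested, had 2 such stretches. Prrx1, with 0 counts in Klf4-plasmid libraries, had 1, in a window that shares 60 bases with exons. Such matches are frequent: CACCC occurs in 52.0%, CCNCNCCC in 45.9% and CACCTG in 17.2% of the 32851 RefSeq promoter windows of the same length. The Twist2 window held 68.8% G and C against a median of 52.4% over all windows. The CpG content of the Snai1 and Twist2 windows, relative to base composition, was 0.882 and 0.788 against a median of 0.373. The Vim window, at 0.376, lay near that median. These matches describe letters in the reference and no binding was measured.

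Vim, the filament gene, had the largest fold of the 7 tested genes. It lies on chromosome 2, 13573927 to 13582826, plus strand (GRCm38), with 4743 exonic bases. It had 7, 4, 6 and 5 counts in control replicates 1 to 4, and 113, 104, 159 and 147 in Klf4-plasmid replicates 1 to 4. The groups did not overlap, and in this direction 17.2% of all tested genes were apart. The control counts were close to the lower end of what these libraries can measure. Its level averaged 0.114 ± 0.0282 CPM with empty vector and 2.57 ± 0.398 CPM with the Klf4 plasmid (SD, n = 4), where CPM are scaled with TMM factors. The log2 fold change was 4.47 (SE 0.24, 95% interval 3.96 to 4.98), and the quasi-likelihood test of edgeR gave a Benjamini-Hochberg adjusted p of 8.51e-13. It was 4.25 in batch 1 and 4.67 in batch 2. The raised level was still low: per kilobase of exon, Vim in Klf4-plasmid cells exceeded 21.6% of the tested genes, against 2.58% in control cells.

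Snai1, the founding SNAI repressor (plus strand of chromosome 2, bases 167538195 to 167542814), had 25, 41, 31 and 14 counts with empty vector against 69, 67, 73 and 104 in Klf4-plasmid libraries. All Klf4-plasmid libraries lay above all control libraries in both batches; over all tested genes, groups were apart in this direction for 17.2%. Its level went from 0.573 ± 0.229 to 1.54 ± 0.292 CPM (SD, n = 4), with a log2 fold change of 1.43 (SE 0.25, interval 0.90 to 1.96, edgeR adjusted p 9.47e-05). The value was 1.02 in batch 1 and 1.87 in batch 2.

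The other SNAI genes did not pass the test. Snai2, which encodes the repressor SLUG (plus strand of chromosome 16, bases 14705852 to 14709385), had 99, 138, 118 and 82 counts with empty vector against 138, 142, 112 and 100 in Klf4-plasmid libraries. Its groups overlapped, at 2.26 ± 0.479 and 2.46 ± 0.557 CPM (SD, n = 4). The log2 fold change was 0.11 (interval -0.20 to 0.42, edgeR adjusted p 0.629), 0.22 in batch 1 and -0.01 in batch 2. Snai3 (minus strand of chromosome 8, bases 122454208 to 122460733) had 10, 8, 7 and 15 counts with empty vector against 15, 6, 12 and 16 in Klf4-plasmid libraries. Its log2 fold change was 0.21 (interval -0.63 to 1.06, edgeR adjusted p 0.738), an interval that includes no change as well as a doubling. The sign of both estimates turned when 1 library was left out: Snai2 was -0.018 without control replicate 1, and Snai3 was -0.014 without control replicate 3 and -0.0093 without Klf4 replicate 1. The effects on Snai1 and on its relatives were not tested against each other.

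The ZEB genes were the most counted of the 10. Zeb2 (minus strand of chromosome 2, bases 44983632 to 45117395) had 779, 720, 949 and 840 counts with empty vector against 1160, 953, 1360 and 1307 in Klf4-plasmid libraries. The lowest Klf4-plasmid library, 21.1 CPM, lay above the highest control library, 19.3 CPM. Levels were 17.0 ± 1.85 and 23.5 ± 2.18 CPM (SD, n = 4), with a log2 fold change of 0.47 (SE 0.05, interval 0.36 to 0.58, edgeR adjusted p 2.55e-07). Within batches the values were 0.47 and 0.48. Zeb2 shares 653 of its 19942 exonic bases with the antisense gene Zeb2os, which had 1 to 13 counts per library.

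Zeb1 (plus strand of chromosome 18, bases 5591860 to 5775467) had 1689, 1748, 1917 and 1759 counts with empty vector against 1685, 1540, 1847 and 1928 in Klf4-plasmid libraries. Its level averaged 36.8 ± 1.43 CPM with empty vector and 34.6 ± 1.67 CPM with the Klf4 plasmid (SD, n = 4), and the groups overlapped. The log2 fold change was -0.09 (SE 0.04, interval -0.17 to -0.00465), with an edgeR p of 0.0397 before and 0.0936 after adjustment. Without control replicate 4 it passed, at -0.12 (edgeR adjusted p 0.0439). The depth behind Zeb1 is enough that its interval leaves no room for a change of the size measured in Zeb2. The effects on Zeb1 and Zeb2 had intervals that did not meet, though their difference was not itself tested.

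The TWIST genes stood at the lower limit of detection. Twist2 (plus strand of chromosome 1, bases 91801461 to 91848028) had 8, 1, 3 and 0 counts with empty vector against 11, 19, 15 and 11 in Klf4-plasmid libraries, or 0.0628 ± 0.0757 and 0.282 ± 0.0986 CPM (SD, n = 4). Its log2 fold change was 2.15 (SE 0.58, interval 0.94 to 3.36, edgeR adjusted p 0.00553). Control replicate 1 held 8 of the 12 control counts, and without it the log2 fold change was 3.18. In batch 1 alone the call was lost, at 1.70 (edgeR adjusted p 0.0889). In batch 2 it was 2.92 (edgeR adjusted p 0.0135). Over all genes, 15.9% were called higher in batch 1 alone and 20.1% in batch 2 alone. Twist2 shares 1477 of its 3174 exonic bases with the antisense gene Gm29100, which had 3, 3, 1 and 2 counts with empty vector against 13, 5, 0 and 2 in Klf4-plasmid libraries, so its counts are uncertain where strand was not used.

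Twist1 (plus strand of chromosome 12, bases 33957671 to 33959829) had no counts in any control library and 9, 5, 4 and 4 in the Klf4-plasmid libraries. It failed the filter. Set against a floor of 3 counts over the 4 control libraries, its 22 counts were 7.01-fold higher, and the exact 95% counting interval of the ratio starts at 5.24. With no filter on low counts it was called higher (edgeR adjusted p 0.00356), in a fit that called 12.7% of 33674 genes higher. That fit gave much smaller p-values to some genes, such as Snai1, at an edgeR adjusted p of 3.99e-10 against 9.47e-05 with the filter.

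Prrx1 and Fn1 gave no sign of expression beyond a few counts. Prrx1 (minus strand of chromosome 1, bases 163245119 to 163313710) had 0, 2, 3 and 0 counts with empty vector against none in Klf4-plasmid libraries, where a count of 0 allows up to 3 counts over the group. Fn1 (minus strand of chromosome 1, bases 71585520 to 71653200), for the matrix protein fibronectin, had 1, 4, 10 and 7 counts with empty vector against 9, 3, 8 and 10 in Klf4-plasmid libraries. Its ratio between groups was 1.30 with an exact 95% counting interval of 0.727 to 2.37. Fitted with no filter, the edgeR adjusted p was 0.323 for Prrx1 and 0.699 for Fn1. So a change in these genes smaller than a few counts per library was not detectable at this depth.

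**Figure D1:**
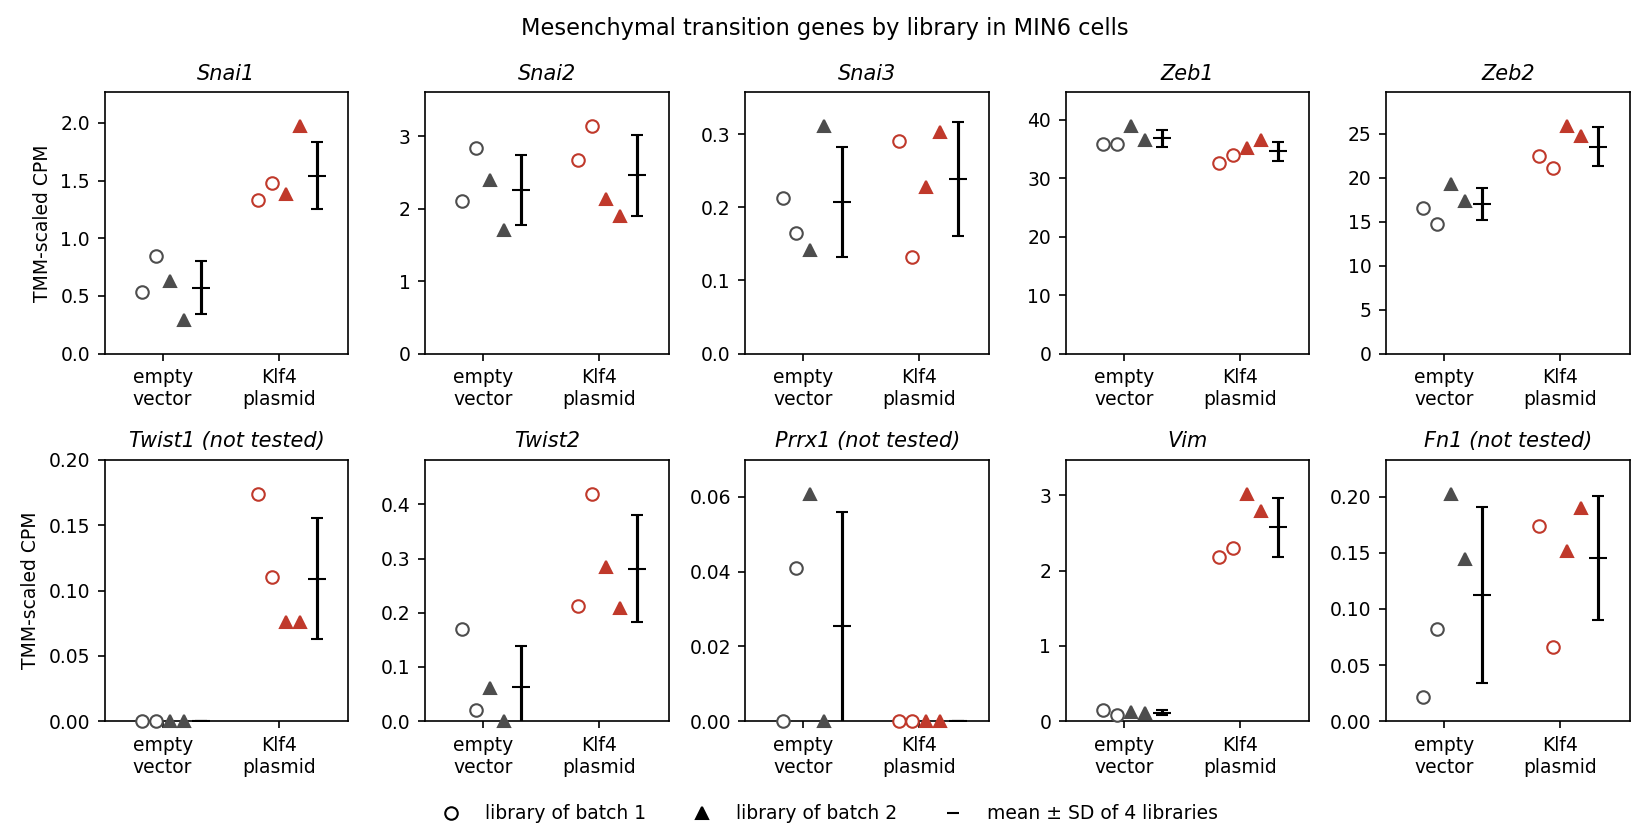
TMM-scaled CPM of the 10 genes in each library (vertical axes, each from 0 on its own scale), with empty-vector libraries in grey and Klf4-plasmid libraries in red. Open circles are libraries of batch 1, filled triangles those of batch 2, and bars give mean ± SD of 4 libraries. For Vim, Snai1, Zeb2, Twist1 and Twist2 the groups do not overlap, with Vim at 2.57 against 0.114 CPM. Of all tested genes, 17.2% were apart in this direction, and Vim, Twist1 and Twist2 had at most 8 counts in any control library. Snai2, Snai3, Zeb1, Fn1 and Prrx1 overlap or hold libraries at 0.

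The size of the effect was also compared between batches by an interaction term in edgeR. None of the 7 tested genes passed, with adjusted p from 0.564 for Snai1 to 1 for Snai3, while 0.766% of all tested genes did. Before adjustment the lowest p was 0.0905, for Snai1, whose fold was larger in batch 2 by 0.83 on the log2 scale (interval -0.14 to 1.81). That difference ranged from 0.38 without control replicate 4 to 1.48 without control replicate 3. Zeb2 differed least, by -0.01 (interval -0.23 to 0.21). For Vim, Snai1, Zeb2 and Twist2 every Klf4-plasmid library lay above both control libraries of its batch. That order within batches follows from groups that were apart over all libraries, as were 17.2% of tested genes in this direction. Klf4 itself rose more in batch 2 than in batch 1, at 7.17 against 6.78 on the log2 scale.

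**Figure D2:**
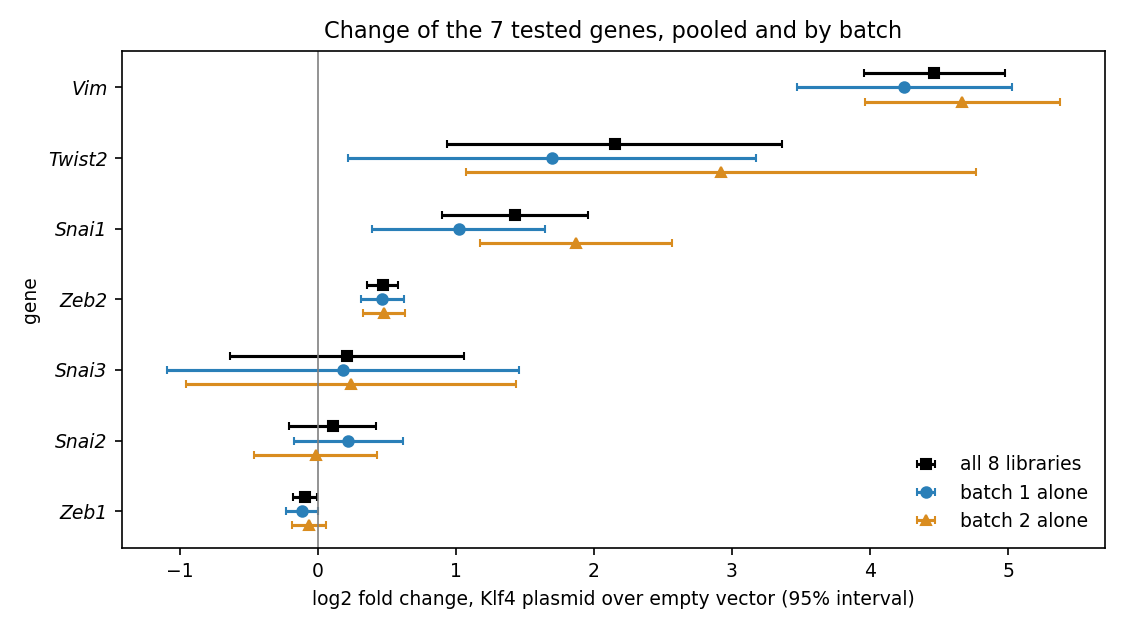
Log2 fold change of the 7 tested genes, Klf4 plasmid over empty vector (horizontal axis), from all 8 libraries (squares) and from batch 1 (circles) or batch 2 (triangles) alone, with 95% intervals of the edgeR fit. Vim lies at 4.25 and 4.67 in the batches and Zeb2 at 0.47 and 0.48, while intervals of Snai2 and Snai3 include 0 in each fit.

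Levels of different genes were compared as CPM per kilobase of exon. In control cells the order was Zeb1 (3.58 ± 0.139), Snai2 (1.12 ± 0.237), Zeb2 (0.852 ± 0.093), Snai1 (0.354 ± 0.141), Snai3 (0.127 ± 0.046) and then Vim, Twist2, Fn1, Prrx1 and Twist1, all at or under 0.024 (SD, n = 4). Ranges over libraries met between Snai2 and Zeb2, between Snai1 and Snai3, and between each pair of neighbours from Vim to Twist1, and were apart elsewhere. Zeb1 thus stood near the median of tested genes in control cells (49.9% were lower), and it was the most abundant of the 10 in both groups. In Klf4-plasmid cells Zeb1 (3.37 ± 0.163) was followed by Snai2 (1.22 ± 0.275), Zeb2 (1.18 ± 0.11) and Snai1 (0.952 ± 0.18), and the ranges of Snai2 and Zeb2 and of Zeb2 and Snai1 met. Vim moved from the sixth to the fifth place, at 0.543 ± 0.0838, apart from Snai1 above and Snai3 below it. Exonic lengths are unions over all annotated transcripts of a gene.

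**Figure D3:**
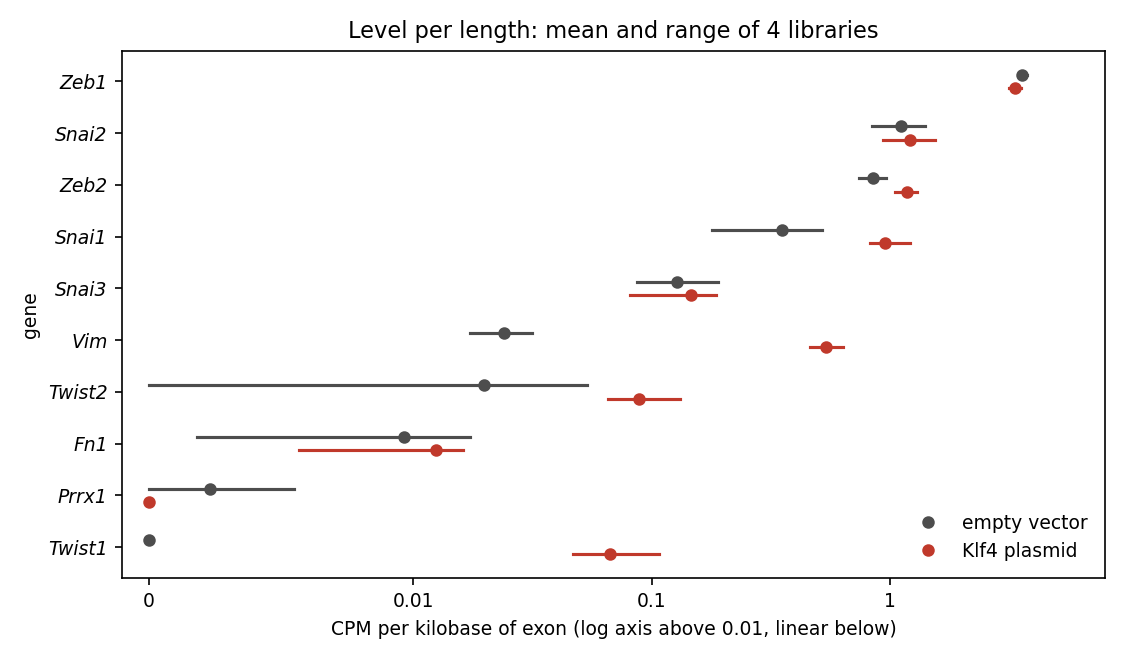
CPM per kilobase of exon of the 10 genes (horizontal axis, logarithmic above 0.01 and linear below), as the mean (points) and range (lines) of 4 empty-vector (grey) and 4 Klf4-plasmid libraries (red). Zeb1 is highest in both groups, at 3.58 and 3.37, and Vim moves from 0.024 to 0.543.

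Genes whose profile over the 8 libraries was most like that of the 2 most counted genes were found by the root mean square difference of log2 CPM, each profile centred on its control mean, among 10481 genes. For Zeb1 they were Cyfip2 (0.0234), Thoc3 (0.0249) and Ptch1 (0.0256), against a median difference of 0.115 over all genes compared. For Zeb2 they were Tmem267 (0.0482), Eml1 (0.0575) and Osgin1 (0.0643), against a median of 0.388. The log2 fold changes were -0.10, -0.09 and -0.09 for the Zeb1 neighbours and 0.47, 0.41 and 0.46 for the Zeb2 neighbours. The choice used these same libraries, so values near those of Zeb1 and Zeb2 follow from it.

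Genes around the transition factors were then described with 9 lists holding 108 genes, of which 90 were tested: 46 were higher and 14 lower. Genes that reached the filter in all 4 Klf4-plasmid libraries but not in all 4 control libraries passed through the group where they are high; over all tested genes there were 1294, of which 923 were called higher, and they are named in each list that has any. Of the other 16972 tested genes, 2933 were called higher, which stands beside each count of other genes in a list. Lists are given by counts and medians, beside a median log2 fold change of -0.01 over all tested genes, of which 36.6% were called.

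On the input side, transforming growth factor β (TGF-β) is the best known inducer of the SNAI and ZEB genes. Of 12 tested genes of its pathway 6 were higher and 2 lower, with a median of 0.21. The ligand gene Tgfb1 rose from 34.3 ± 8.57 to 73.6 ± 17.6 CPM (SD, n = 4), a log2 fold change of 1.10 (edgeR adjusted p 2.53e-15). Within batches its log2 fold changes were 1.10 and 1.11. The co-receptor gene Tgfbr3 rose by 1.63 on the log2 scale, from 35 to 114 counts in all (edgeR adjusted p 0.00246), and Skil, for a SMAD-binding corepressor, by 0.30 (edgeR adjusted p 1.95e-05). Tgfbr3 passed the filter through the Klf4-plasmid libraries, and its call was lost in batch 1 alone, at 1.28 (edgeR adjusted p 0.0673). Of the other 11 tested, 5 were higher. Tgfbr2, the gene of the type II receptor, was not tested, with 1 count over the control and 7 over the Klf4-plasmid libraries (named with its values known).

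Among corepressors used by SNAI and ZEB proteins 12 were tested, of which 4 were higher and 2 lower, with a median of 0.04. Those of largest change were Ajuba, for a LIM protein that binds the SNAG domain of SNAI1 (1.32, edgeR adjusted p 0.0403), Rcor1 (0.29, adjusted p 1.51e-06) and Ezh2 (0.19, adjusted p 3.80e-05), the latter pair encoding a partner of LSD1 and a histone methyltransferase. Ajuba passed the filter through the Klf4-plasmid libraries, rested on 30 control and 79 Klf4-plasmid counts, and its call was lost in 10 of the alternatives, such as without control replicate 4 (edgeR adjusted p 0.144). Without control replicate 2 its log2 fold change was 2.06.

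SNAI1 protein is short-lived, and its turnover was covered by 10 tested genes, 1 higher and 3 lower (median 0.05). Usp27x, for a deubiquitinase reported to stabilise SNAI1, rose from 5.41 ± 0.448 to 8.09 ± 0.581 CPM (SD, n = 4), a log2 fold change of 0.58 (edgeR adjusted p 1.04e-05). The F-box genes Fbxl5 and Btrc, whose products mark SNAI1 for degradation, fell by 0.20 and 0.15 on the log2 scale (edgeR adjusted p 0.00102 and 0.000659). The call of Fbxl5 was lost in batch 2 alone, at -0.16 (edgeR adjusted p 0.0547). Named with their values known, the F-box genes Fbxl14 (-0.02, edgeR adjusted p 0.696) and Fbxo11 (0.08, edgeR adjusted p 0.0968) of this list were not called. No protein was measured.

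Among 7 E-protein and ID genes, partners and inhibitors of TWIST, 3 were higher and 2 lower (median -0.01). Id4 rose from 8.52 ± 1.64 to 15.7 ± 2.77 CPM (SD, n = 4), a log2 fold change of 0.88 (edgeR adjusted p 2.83e-10) and Id1 rose by 0.21 (adjusted p 0.000918), while Id2 fell by 0.20 (adjusted p 1.91e-05). Id1 overlapped between groups and did not pass in batch 1 alone, at 0.08 (edgeR adjusted p 0.228).

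Of 9 other factors linked to the transition, 3 were tested. The rest had too few counts, given here as totals of the control and the Klf4-plasmid libraries and named with their values known. They were Hmga2 (0 and 54), Gsc (0 and 44), Sox9 (1 and 42), Prrx2 (4 and 20), Foxq1 (0 and 9) and Foxc2 (1 and 2). Klf8, a Krüppel-like repressor, rose from 2.35 ± 0.423 to 9.15 ± 1.7 CPM (SD, n = 4), a log2 fold change of 1.95 (edgeR adjusted p 3.82e-13). Sox4 had a log2 fold change of -0.09 (edgeR adjusted p 0.045). Its call was lost in 11 alternatives, among them a fit blocked on replicate number (edgeR adjusted p 0.0668) and those without control replicate 3 (0.14) or Klf4 replicate 3 (0.106).

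Epithelial genes, the targets that SNAI and ZEB proteins are known to repress, were mostly higher. Of 18 tested, 16 were higher and none lower, with a median of 0.72. This list includes Cldn4, Esrp1, Grhl2, Krt19 and Ovol1, which passed the filter through the Klf4-plasmid libraries. Of the other 13 tested, 11 were higher. Esrp1, for an epithelial splicing factor, had 1 count in all control libraries together and 554, 514, 677 and 660 counts in the Klf4-plasmid libraries (edgeR adjusted p 1.31e-19). Cldn4, for a tight-junction claudin, had at most 3 counts in any control library but 225 to 280 in those with the Klf4 plasmid (log2 fold change 7.27, edgeR adjusted p 5.89e-16). Ovol1, for a zinc-finger factor known to repress Zeb1, rose from 0.207 ± 0.123 to 8.41 ± 1.41 CPM (SD, n = 4), a log2 fold change of 5.32 (edgeR adjusted p 1.56e-15). Cdh1, the E-cadherin gene, was chosen after its values were seen: it rose by 0.21 on the log2 scale, from 139.4 to 160.9 CPM. So Vim, Snai1 and Zeb2 were higher in the same libraries as the epithelial genes, in cells pooled per culture.

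Mesenchymal effector genes, products of which form or remodel matrix and stress fibres, were in part higher. Of 14 tested, 9 were higher and none lower, with a median of 0.85, and 6 of 20 had too few counts. Itga5, Lox, Mmp14, Sparc and Tagln passed the filter through the Klf4-plasmid libraries, and of the other 9 tested, 4 were higher. Itga5, the fibronectin receptor α5 gene, had no control counts and 72, 74, 80 and 105 counts in Klf4-plasmid libraries, 105.5-fold higher than the floor of 3 counts over the control group, with an exact 95% counting interval that starts at 85.3. Lox, for a collagen cross-linking enzyme, went from 6 to 229 counts in all (log2 fold change 5.10, edgeR adjusted p 7.44e-09) and was 5.96 without control replicate 4, which held 4 of those 6. Col5a1, a collagen chain gene, rose from 1.05 ± 0.0893 to 10.03 ± 2.84 CPM (SD, n = 4), a log2 fold change of 3.24 (edgeR adjusted p 4.16e-15). Named after their values were seen, the N-cadherin gene Cdh2 rose by 0.09, and the smooth-muscle actin gene Acta2 had 1 count over all 8 libraries.

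Vim was not alone among filament genes. Of 7 tested relatives, 2 were higher and 3 lower (median -0.07). Des, for the muscle filament desmin, rose from 0.362 ± 0.087 to 4.68 ± 1.01 CPM (SD, n = 4), a log2 fold change of 3.68 (edgeR adjusted p 5.25e-14). Prph, for the neuronal filament peripherin, rose from 32.9 ± 3.19 to 109.6 ± 15.7 CPM (log2 fold change 1.73, edgeR adjusted p 1.77e-19). Both belong, with Vim, to the type III filaments. Gfap, also listed and named with its values known, was not tested. It had 7 counts over the control and 14 over the Klf4-plasmid libraries, and its groups overlapped. The neurofilament gene Nefh fell by 0.16 on the log2 scale (edgeR adjusted p 0.00034), with groups that overlapped, and did not pass in batch 1 alone (edgeR adjusted p 0.12).

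Receptors for fibronectin were higher in part although Fn1 itself stayed at a few counts. Of 8 tested, 4 were higher and 1 lower (median 0.17). Besides Itga5, which stands in both lists, Itgb3 went from 13 to 533 counts in all (log2 fold change 5.23, edgeR adjusted p 8.91e-12), and the syndecan gene Sdc4 rose from 29.1 ± 1.87 to 58.4 ± 5.57 CPM (SD, n = 4), a log2 fold change of 1.00 (edgeR adjusted p 6.33e-13). Itga5 and Itgb3 passed the filter through the Klf4-plasmid libraries, and of the other 6 tested, 2 were higher.

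**Figure D4:**
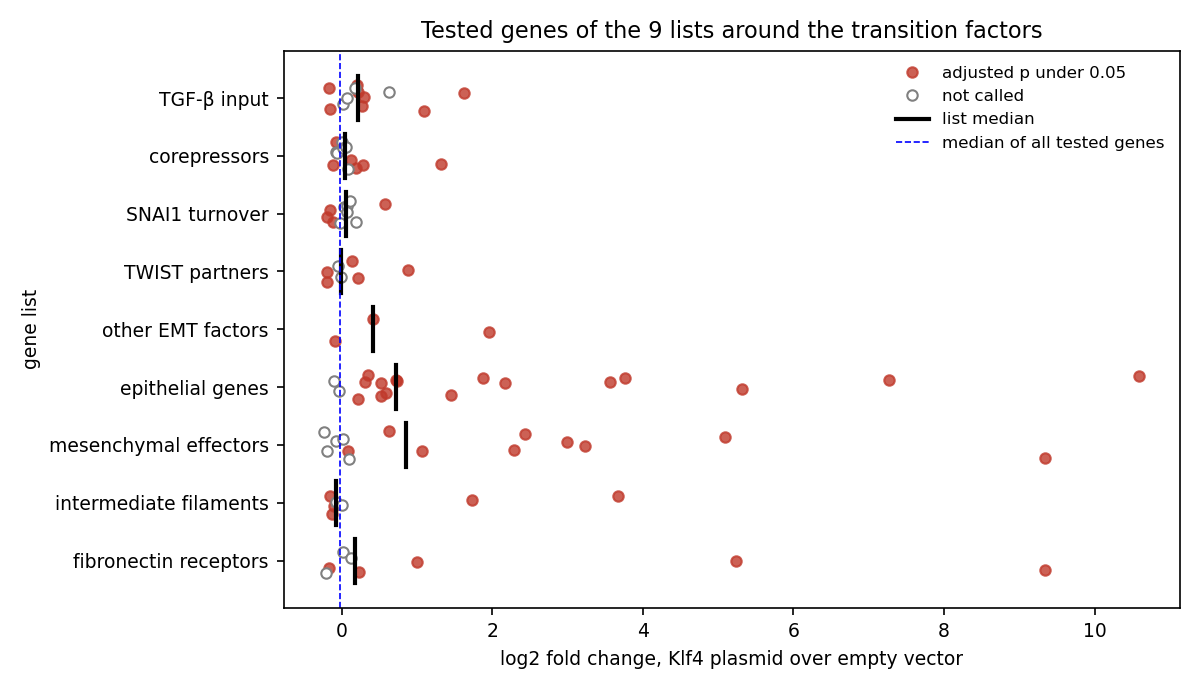
Log2 fold change, Klf4 plasmid over empty vector (horizontal axis), of the tested genes of 9 lists (rows), with filled red points for genes at an edgeR adjusted p under 0.05, open points for others, black bars for list medians and a dashed line for the median of all tested genes, -0.01. Points are shifted vertically so that they can be seen apart. Medians reach 0.72 for epithelial genes and 0.85 for mesenchymal effectors, and the largest folds rest on a few or no control counts.

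Markers of other cell types were read beside these results. Col1a1, Col1a2, Col3a1 and Postn are fibroblast markers that also stand in the list of mesenchymal effectors. Of 9 fibroblast markers 5 were tested and 4 were higher, and their summed level was 4.41 to 5.69 CPM in control and 24.1 to 30.9 CPM in Klf4-plasmid libraries. Most of it in the Klf4-plasmid libraries was Dcn, at 0.0461 and 17.6 CPM on average, and Pdgfra had 0, 3, 0 and 2 counts against 46, 36, 42 and 44. Both passed the filter through the Klf4-plasmid libraries, and of the other 3 tested, Col1a1 and Thy1 were higher, by 1.07 and 0.93 on the log2 scale. The fibroblast marker Lum was at 0 in all libraries, Col3a1 had 2 control and 3 Klf4-plasmid counts, Postn 6 and 7, and Col1a2 did not pass (log2 fold change 0.09, edgeR adjusted p 0.734). Dcn, Pdgfra, Col1a1 and Thy1, rather than the list as a whole, were higher in the same libraries as Vim, Snai1, Zeb2 and Twist2. The part of fibroblast markers in that change was not tested. Summed endothelial markers (19.2 to 23.8 against 22.1 to 24.1 CPM) and leukocyte markers (6.35 to 6.94 against 6.29 to 7.82 CPM) overlapped between groups. Among the endothelial markers most of the sum was Esam (17.4 and 17.8 CPM), and 1 of 4 tested was higher: Cdh5, the VE-cadherin gene, had no control counts and 14, 28, 19 and 19 with the Klf4 plasmid (edgeR adjusted p 2.43e-06), and passed the filter through those libraries. Its part in the results was not tested.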

How the data were processed

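Values were raw read counts per gene, which the authors deposited as 1 column per library. Trimming with cutadapt is named in the title of the deposited table, and the submitters' processing notes list STAR, featureCounts, edgeR and the mm10 build. Versions, strand setting and annotation are not given in the sources used here. All 55536 pairs of symbol and identifier matched GENCODE M21 (GRCm38), the source of positions and exonic lengths.

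Counts were analysed in edgeR 4.0.16 (limma 3.58.1, R 4.3.3). Genes were kept by filterByExpr (minimum count 10), scaled with TMM factors, and tested with glmQLFit and glmQLFTest on batch and plasmid. Both the tool and the batch term are those of the series' design text. P-values were adjusted by Benjamini-Hochberg over the 18266 tested genes, with a threshold of 0.05. SEs are the log2 fold change divided by the root of the F statistic. Intervals and floors from counts cover counting error alone. The fit was tested before use on simulated data that held no batch difference, so the batch term was not put to the test. There it called 81.25% of genes changed by 0.5 on the log2 scale and 0.0955% of unchanged genes.

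Replicate numbers come from the sample titles. Same-numbered libraries of the groups deviated together (correlations 0.459 to 0.613 over 10482 genes), as did libraries of a batch with other numbers (0.459 to 0.574). With batch means removed, same-numbered values were -0.0445 to 0.0787.

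Named genes were the 10 genes, Klf4, the 3 largest changes among called genes of each list, and the 3 nearest profiles of the 2 most counted genes. One gene that this rule names is not reported here. Genes and lists were chosen with earlier results of these data known. Alternatives are given in the closing section. DESeq2 1.42.0 served as one of them. Nothing in the labels says whether replicates were separate cultures beyond the word biological, so p-values measure the spread between these libraries.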

Additional observations from a re-analysis of the deposited data

Results flagged for a closer look

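The effect of the Klf4 plasmid on Klf4 itself differed between batches, by 0.37 on the log2 scale for batch 2 against batch 1 (edgeR interaction test, adjusted p 0.0057). The test was not passed under 4 of the alternatives, namely DESeq2 (adjusted p 0.313), limma-voom (0.359), and edgeR without Klf4 replicate 2 (0.0749) or without control replicate 4 (0.111). Among 20 groups of 4 values tested for an outlying library, 0 had one, where chance gives about 1.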

How the results depend on the processing

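The calls of Vim, Snai1 and Zeb2 held under every alternative run, as did the lack of a call for Snai2 and Snai3. Alternatives were no batch term, the replicate number as a block, DESeq2 size factors, the DESeq2 Wald test, limma-voom, other filters and scalings, a threshold of 0.01, each batch alone and the omission of each library. At 1 CPM in at least 4 libraries, Snai3 and Twist2 were not tested. Twist2 was not called in batch 1 alone (1.70). The estimate for Snai2 changed sign in batch 2 alone (-0.013). Without single libraries, Snai2 ranged from -0.018 to 0.22, Snai3 from -0.014 to 0.45 and Zeb1 from -0.12 to -0.081, and the number of the 10 genes called lower from 0 to 1. Among differences between batches, Zeb2 changed sign under the DESeq2 Wald test (0.000332), with TMM factors from genes of average log2 CPM of at least 6 (0.012) and with the filter at 1 CPM (0.011). Without single libraries these differences ranged from 0.38 to 1.48 for Snai1, -0.51 to -0.00048 for Snai2, -0.11 to 0.050 for Zeb2, -0.43 to 0.73 for Snai3, -0.012 to 0.068 for Zeb1, -0.88 to 4.92 for Twist2 and -0.086 to 0.75 for Vim, and did not pass the threshold.

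Over all genes, 2828 were lower, against 1159 without the batch term, 1638 with TMM factors from genes of average log2 CPM of at least 6, 1583 and 1804 in batches 1 and 2 alone and 1696 at a threshold of 0.01. With those TMM factors 72.8% of calls were higher, against 57.7%. Of list genes, 14 were lower, against 8 with no batch term and 8 in batch 1 alone. With the replicate block 6284 genes were called, 3724 higher and 2560 lower, and no call changed for the 10 genes. The cause of these shifts was not tested. Depth limits Twist1, Twist2, Prrx1, Fn1 and Snai3, which had at most 19 counts per library.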
